A study of Mus musculus with 61 samples.

Results

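Vesicle trafficking genes encode the proteins that bud, move, tether and fuse membrane carriers between the organelles of a cell. Of the 5154 genes in the deposited Sono-seq table, 97 were taken by the start of their symbol. These were Rab GTPases, Arf and Arl GTPases, partners of both, Tbc1d proteins, Sec proteins and COPI coat proteins. Adaptor subunits, Vps proteins, sorting nexins, and the syntaxin and Vamp SNAREs made up the rest. The Sec genes include coat and translocon genes and Sec14l1. The 97 genes account for 376 of the 22594 rows of the table, which pair each gene with its enhancers. They hold 104 distinct promoters (start sites) and 360 distinct enhancers. Vps72 matched by name only, since it encodes a chromatin protein that handles the histone variant H2A.Z, and it was kept and counted.

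All cells were reprogramming intermediates at day 3, derived from mouse embryonic fibroblasts of E13.5 embryos, strain Black6-129X1/SvJ, genotype Col1a1::tetOP-OKSM ; R26-M2rtTA. In such cells doxycycline switches on OKSM (Oct4, Klf4, Sox2 and Myc), and every group named here received doxycycline in serum/LIF medium with ascorbate. Sono-seq, a measure of accessibility that sequences sheared, fixed chromatin without an antibody, was done on 3 CAF-1 knockdown libraries and 3 Renilla control libraries. The files give 1 value per region for CAF-1 knockdown and 1 for Renilla. Sox2 ChIP-seq had 1 immunoprecipitate and 1 input for each of the hairpins Chaf1a.166, Chaf1a.2122 and Renilla, and the files give 1 list of Sox2 positions for each. CAF-1 is the histone chaperone that places nucleosomes on newly copied DNA, Chaf1a is its large subunit, and the Renilla hairpin targets a luciferase that the cells lack. Nothing here has replicate error, so no difference below carries a test. The knockdown of Chaf1a and the cell type could not be checked, because the files used here hold no expression values, and the other 49 of 61 samples were not analysed here.

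Membrane traffic runs along a chain of coats and switches. COPII carries cargo out of the endoplasmic reticulum and COPI returns it, while Arf and Rab GTPases mark each compartment and recruit coats, motors and tethers. Most Tbc1d proteins switch Rab GTPases off, sorting nexins and Vps complexes sort cargo at endosomes, and SNAREs drive the final fusion. Reprogrammed fibroblasts turn from flat, motile cells into compact epithelial-like ones, a change that involves the traffic of adhesion proteins.

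Sox2 lay within 1 kb of a start site of 4 trafficking genes in all 3 lists, Vamp1, Rab30, Snx10 and Vps25, and the promoters at these sites all had lower Sono-seq values in CAF-1 knockdown than in Renilla. Vamp1 encodes a vesicle SNARE, Rab30 a GTPase of the Golgi, Snx10 a sorting nexin of endosomes and Vps25 a subunit of ESCRT-II, which sorts ubiquitinated cargo into late endosomes. At the Vamp1 start the nearest position was 171 bp away in the Chaf1a.166 list, 78 bp away in the Chaf1a.2122 list and 78 bp away in the Renilla list, upstream in each case. The Vamp1 promoter had a Sono-seq value of 0.108 in CAF-1 knockdown and 0.157 in Renilla, a log2 ratio of -0.53 that was the lowest of the 104 promoters. The Rab30 promoter had 0.148 in CAF-1 knockdown and 0.173 in Renilla (log2 ratio -0.22), with Sox2 143 bp away in Chaf1a.166, 102 bp in Chaf1a.2122 and 67 bp in Renilla. At the Snx10 start with Sox2 the values were 0.136 in CAF-1 knockdown and 0.161 in Renilla (log2 ratio -0.24), with distances of 154 bp in Chaf1a.166, 145 bp in Chaf1a.2122 and 87 bp in Renilla. Vps25 had 0.108 in CAF-1 knockdown and 0.127 in Renilla (log2 ratio -0.23), and its position lay 786 bp, 790 bp and 798 bp into the gene in Chaf1a.166, Chaf1a.2122 and Renilla. Thus 0 of these 4 promoters were higher in CAF-1 knockdown, whereas 161 of the 328 promoters of other genes with Sox2 within 1 kb in all 3 lists were higher (49.1%), with a median log2 ratio of -0.0025. In each gene the authors' lower bound of enrichment over input was under 2 in 1 list: 1.75 for Vamp1 in Chaf1a.2122, 1.75 for Rab30 in Renilla, 0.612 for Snx10 in Renilla and 1.39 for Vps25 in Chaf1a.166. With positions of a bound of at least 2 only, Vamp1, Snx10 and Vps25 no longer had Sox2 within 10 kb in all 3 lists. Rab30 kept it within 10 kb, in Renilla through another position than the nearest, whose distance was not examined. Ranks also varied: the Vamp1 position ranked 6405 of 15888 in Chaf1a.166, 9832 of 19319 in Chaf1a.2122 and 12091 of 17681 in Renilla, and the Snx10 position ranked 7204, 17977 and 10276 in the same order of lists. This pairing of both measures was chosen after the values were seen, and 4 promoters are too few to set apart from the rest.

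A further 4 genes had Sox2 within 1 kb of the start in both knockdown lists and not in the Renilla list: Vps52, Vps45, Rab5c and Snx7. Vps52 is a subunit of the GARP tether at the trans-Golgi network, Vps45 a partner protein of endosomal syntaxins, Rab5c a GTPase of early endosomes and Snx7 a sorting nexin. The Vps52 positions lay 177 bp upstream in Chaf1a.166 and 82 bp upstream in Chaf1a.2122, and the nearest Renilla position was 36163 bp away. Vps45 had positions 117 bp upstream in Chaf1a.166 and 148 bp upstream in Chaf1a.2122, with the nearest Renilla position at 40257 bp. For Rab5c they were 162 bp upstream in Chaf1a.166 and 127 bp upstream in Chaf1a.2122, with the nearest Renilla position at 51739 bp. The Snx7 positions lay 582 bp into the gene in Chaf1a.166 and 586 bp in Chaf1a.2122, with the nearest Renilla position at 95026 bp. In each gene the lists of the separate hairpins placed Sox2 within 100 bp of each other. All 4 were weak positions in their lists: the Chaf1a.166 ranks were 11414 for Vps52, 10783 for Vps45, 12008 for Rab5c and 11711 for Snx7, of 15888 positions. The authors' lower bound of enrichment over input was 0.796 for Vps52, 1.95 for Vps45, 1.54 for Rab5c and 1.51 for Snx7 in Chaf1a.166. In Chaf1a.2122 it was 0.769 for Vps52, 1.83 for Vps45, 5.92 for Rab5c and 1.45 for Snx7. A position missing from the Renilla list lies below the threshold of that list, whose depth is unknown, and is no sign that Sox2 was absent.

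A set of 3 upstream sequences are shown because Sox2 positions lay just upstream of the start of these genes: Vamp1 has Sox2 there in all 3 lists, and Vps45 and Rab5c in both knockdown lists only. Vamp1 was chosen by a rule, Sox2 within 250 bp of the start in all 3 lists. Rab30 and Snx10 also met this rule, but no unambiguous sequence window was at hand for the starts concerned. Vps45 and Rab5c were chosen after their values were seen. Each sequence is the 250 bases before the RefSeq start of the gene in assembly GRCm38.p6, given 5′ to 3′ on the strand of the gene. The windows are chr6:125215331-125215580 (plus strand) for Vamp1, chr3:96058456-96058705 (minus strand) for Vps45 and chr11:100738216-100738465 (minus strand) for Rab5c. Capitals mark matches, on either strand, to 5 motifs, of which ATGCAAAT is an Oct4-like motif and the others are Sox2-like. The Sox2-like motifs are ACAAT, its longer forms AACAAT and AACAATG, which overlap it, and ACAAAG.
Vamp1: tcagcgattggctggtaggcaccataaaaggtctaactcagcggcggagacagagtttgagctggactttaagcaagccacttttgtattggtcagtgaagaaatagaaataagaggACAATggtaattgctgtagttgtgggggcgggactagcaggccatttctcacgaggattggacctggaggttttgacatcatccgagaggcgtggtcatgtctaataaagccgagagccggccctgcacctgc
Vps45: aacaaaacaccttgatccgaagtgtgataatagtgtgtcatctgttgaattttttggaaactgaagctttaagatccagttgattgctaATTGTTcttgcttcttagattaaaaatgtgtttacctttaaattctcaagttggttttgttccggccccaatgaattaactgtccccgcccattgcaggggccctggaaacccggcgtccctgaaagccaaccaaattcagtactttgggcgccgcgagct
Rab5c: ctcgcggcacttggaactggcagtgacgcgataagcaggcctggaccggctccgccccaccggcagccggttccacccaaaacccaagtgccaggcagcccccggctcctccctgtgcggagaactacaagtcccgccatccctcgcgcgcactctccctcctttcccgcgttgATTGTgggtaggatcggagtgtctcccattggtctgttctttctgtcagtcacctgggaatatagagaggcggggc
The Vamp1 window held ACAAT with its first base at -133 from the RefSeq start. On the other strand, the Vps45 window held AACAAT, its leftmost base at -161, and the Rab5c window held ACAAT, its leftmost base at -76. The Sox2 positions are in assembly mm9, so the motif and the position cannot be aligned base by base here. Such short matches are common: ACAAT was, on either strand, in 19 of 101 windows of the 81 trafficking genes matched by symbol (18.8%), in 17.4% of 4467 windows of other genes of the table and in 27.7% of all 32851 windows in RefSeq's table. AACAAT was in 4.95% of windows of trafficking genes and 4.63% of windows of other genes, AACAATG in 0.99% and 1.46%, ACAAAG in 8.91% and 12.5%, and ATGCAAAT in 0.99% and 1.61%.

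The other members with Sox2 close to the start were in fewer lists. In Chaf1a.166 alone, Sox2 lay 515 bp from the start of Arf6, a GTPase of plasma membrane and endosome recycling, 356 bp from Rab13, a GTPase linked to cell junctions, and 247 bp from Vps72. In Chaf1a.2122 alone it lay 28 bp from Vamp8, an endosomal SNARE, 415 bp from Rab21, an early endosome GTPase, and 292 bp from Rab5a, which drives early endosome fusion. In the Renilla list alone it lay 188 bp from Arl1, a GTPase that recruits golgins to the trans-Golgi. Copz1, a COPI subunit, had positions at 217 bp in Chaf1a.2122 and 223 bp in Renilla, and Tbc1d10b at 410 bp in Chaf1a.2122 and 784 bp in Renilla. Tbc1d2, which acts on Rab7, had positions at 750 bp in Chaf1a.166 and 803 bp in Renilla. In all, 18 of the 97 genes had Sox2 within 1 kb in any list (18.6%; 17.5% of all genes). By list these were 12 genes in Chaf1a.166 (12.4%; 10.2% of all genes), 13 in Chaf1a.2122 (13.4%; 12.6% of all genes) and 8 in Renilla (8.25%; 10.7% of all genes). All 3 lists shared 4 (4.12%; 6.09% of all genes). Genes in 1 or both knockdown lists but not in Renilla numbered 10 (10.3%; 6.85% of all genes), of which 4 were in both (4.12%; 1.34% of all genes), and 1 was in Renilla alone (1.03%; 2.11% of all genes). These counts are small and the lists differ in length.

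**Figure D1:**
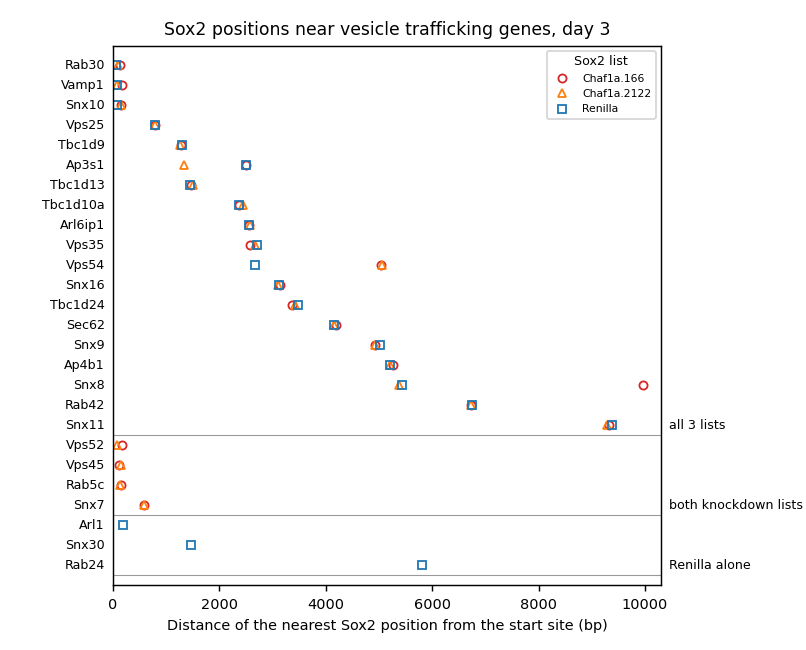
Distance in bp (x axis) from the start site to the nearest Sox2 position for the 26 trafficking genes with Sox2 within 10 kb in all 3 lists, in both knockdown lists only or in the Renilla list only; circles are Chaf1a.166, triangles Chaf1a.2122 and squares Renilla. Most rows with 3 symbols show them almost on top of each other, while Vps52, Vps45, Rab5c and Snx7 have knockdown symbols only, all within 586 bp.

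Within 10 kb of a start site, 31 trafficking genes had a Sox2 position in Chaf1a.166 (32.0%; 28.5% of all genes), 39 in Chaf1a.2122 (40.2%; 33.4% of all genes) and 33 in Renilla (34.0%; 29.3% of all genes). In each list the share was a few points above that of all genes. All 3 lists held 19 of them (19.6%; 20.8% of all genes), and no list held 47 (48.5%; 58.7% of all genes). At least 1 list therefore placed Sox2 near 50 genes (51.5%; 41.3% of all genes), while the share in all 3 lists was level with the background. This gap depended on the distance used: the share in any list was 22.7% within 2 kb (23.0% of all genes). Within 50 kb it was 83.5% (79.2% of all genes). At 10 kb the difference sat in genes found in some lists only. Chaf1a.166 alone had 5 (5.15%; 2.97% of all genes), Chaf1a.2122 alone 8 (8.25%; 6.05%) and Renilla alone 3 (3.09%; 3.26%). Both knockdown lists had 4 (4.12%; 2.99%), Chaf1a.166 with Renilla 3 (3.09%; 1.69%) and Chaf1a.2122 with Renilla 8 (8.25%; 3.51%). The 3 genes in the Renilla list alone were Arl1, Snx30, with Sox2 1473 bp from the start, and Rab24, a GTPase linked to autophagy, with Sox2 5804 bp away.

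**Figure D2:**
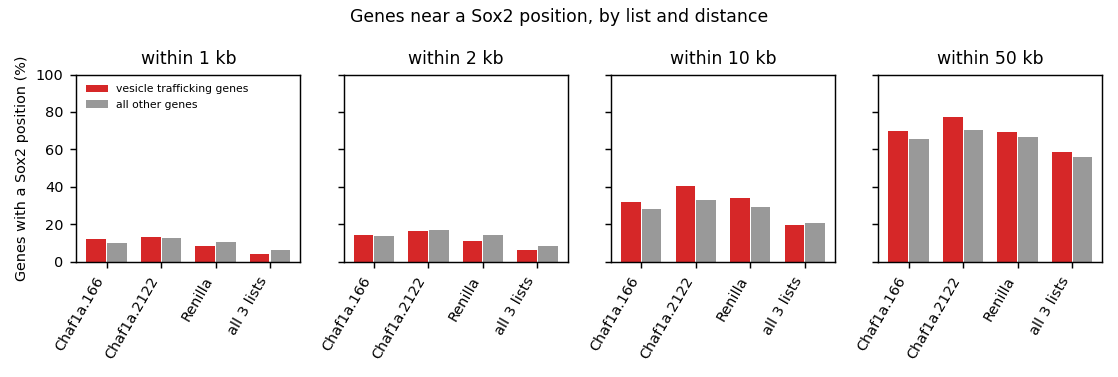
Percent of genes (y axis) with a Sox2 position within 1, 2, 10 or 50 kb of a start site in each list and in all 3 lists; red bars are the 97 vesicle trafficking genes and grey bars the 5057 other genes. The bars of each pair are close, with the widest gaps at 10 and 50 kb in Chaf1a.2122, where trafficking genes reach 40.2% and 77.3%.

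Among the 19 genes near Sox2 in all 3 lists, the nearest positions of the lists fell within 200 bp of each other for 16. The exceptions were Vps54, Ap3s1 and Snx8. This count was not made for other genes, so it does not set the trafficking genes apart. The highest-ranked position near any trafficking gene lay about 4 kb from Sec62, which helps move secretory proteins through the translocon: rank 963 of 15888 in Chaf1a.166, 922 of 19319 in Chaf1a.2122 and 764 of 17681 in Renilla. Tbc1d13, another Rab regulator, had ranks 3079 in Chaf1a.166, 2954 in Chaf1a.2122 and 1777 in Renilla, and its positions lay 1460, 1503 and 1454 bp from the start in the same order of lists. Ap4b1, a subunit of the AP-4 adaptor that exports cargo from the trans-Golgi, had ranks 3636 in Chaf1a.166, 1963 in Chaf1a.2122 and 2299 in Renilla. Other well-ranked positions in Chaf1a.166 were near Snx9, which binds dynamin (rank 1590), Ap3s1, of the AP-3 adaptor (2973), and Tbc1d24 (3161). In Chaf1a.2122 they were near Tbc1d9 (3131) and Snx11 (3189), and in Renilla near Ap3s1 (2790) and Rab30 (3762). Most trafficking genes had weaker positions: the median best rank was 9128 of 15888 in Chaf1a.166, 12425 of 19319 in Chaf1a.2122 and 8196 of 17681 in Renilla.

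By family the numbers were small, and no difference between families was tested; over all genes 20.8% had Sox2 within 10 kb in all 3 lists and 41.3% in any list. All 3 lists agreed on 5 of 12 sorting nexins, 4 of 13 Tbc1d genes, 3 of 12 Vps genes and 2 of 6 adaptor genes. They agreed on 2 of 17 Rab genes, although 10 of these had Sox2 in at least 1 list. For Arf and Arl genes the numbers were 1 of 13 in all 3 lists and 6 in any, for SNAREs 1 of 5 and 3, for Sec and COPI genes 1 of 15 and 5, and for Rab effectors 0 of 4 and 2.

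Promoter accessibility of the trafficking genes was much the same in CAF-1 knockdown and Renilla. The median value over the 104 promoters was 0.142 in CAF-1 knockdown and 0.142 in Renilla, and the median log2 ratio of CAF-1 knockdown over Renilla was -0.019 (quartiles -0.17 and 0.13), against -0.0092 (quartiles -0.16 and 0.14) for the 5409 promoters of all other genes. The ratio was above 0 at 48 promoters (46.2%; 48.2% of all promoters). Past a log2 ratio of 0.32 in size, 6 promoters were higher in CAF-1 knockdown (5.77%; 6.68% of all promoters) and 10 were lower (9.62%; 8.98% of all promoters). No trafficking promoter reached 2-fold, and only 1 of all 5513 promoters did. Set against other genes' promoters in the same decile of mean level, the median ratio was 0.0009. As a group these promoters are not set apart from the table by any of these counts.

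**Figure D3:**
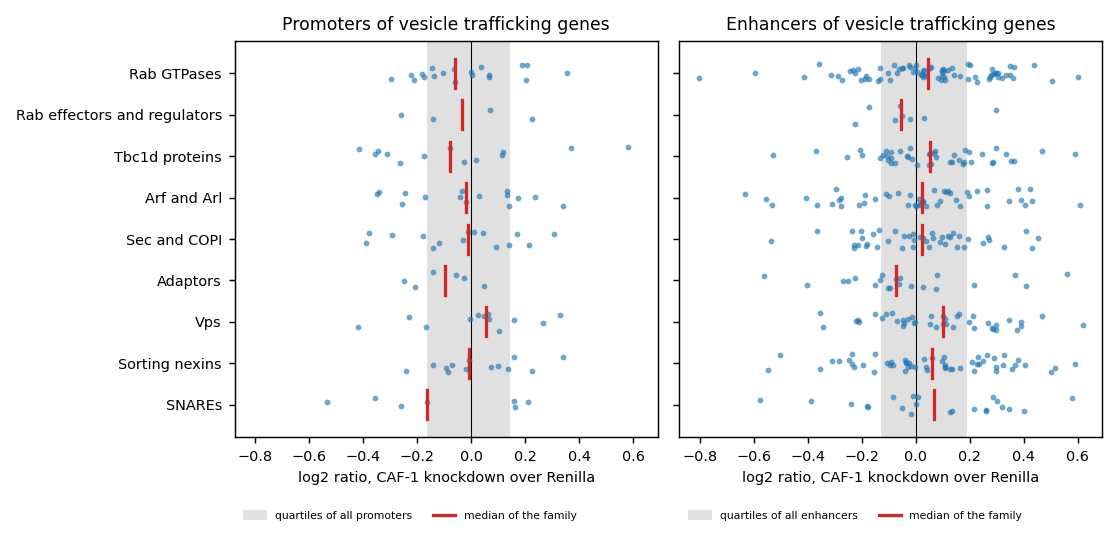
Log2 ratio of the Sono-seq value in CAF-1 knockdown over Renilla (x axis) for each promoter (left) and enhancer (right) of the vesicle trafficking genes, by family; red lines are family medians and the grey band spans the quartiles of all regions. Family medians lie inside the band except for the SNARE promoters, whose median of -0.16 lies at its lower edge.

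The 6 highest promoter ratios came from 5 families. Tbc1d10a, which acts on Rab35 and Rab27a in human cells, had 0.175 in CAF-1 knockdown and 0.117 in Renilla, a log2 ratio of 0.58 that ranked 19 among the 5513 promoters of the table. Tbc1d20, a regulator of Rab1, had 0.147 in CAF-1 knockdown and 0.113 in Renilla (log2 ratio 0.37). Rab7, the GTPase of late endosomes and lysosomes, had 0.148 in CAF-1 knockdown and 0.116 in Renilla (log2 ratio 0.36). In these 3 genes the Renilla value lay below the median of all promoters and the CAF-1 knockdown value above it. The nexin Snx15 had 0.142 in CAF-1 knockdown and 0.112 in Renilla (log2 ratio 0.34), Arl4d had 0.172 and 0.136 in the same order (0.34), and Vps52 had 0.131 and 0.104 (0.33). Vps52 is also one of the 4 genes with Sox2 within 1 kb in both knockdown lists only. The others had ratios of 0.16 (Vps45), 0.066 (Rab5c) and -0.0094 (Snx7). Of 65 promoters of other genes with Sox2 placed in this way, 25 were above 0 (38.5%), with a median of -0.048. A relation of these Sox2 positions to the ratio was not tested.

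The 6 lowest promoter ratios came from 4 families. After Vamp1 came Vps35, the core of the retromer, which returns cargo from endosomes, with 0.134 in CAF-1 knockdown and 0.179 in Renilla (log2 ratio -0.42). Tbc1d10c had 0.106 in CAF-1 knockdown and 0.142 in Renilla (log2 ratio -0.42). Tbc1d10a and Tbc1d10c, close relatives by name, thus lay at opposite ends of the promoter ratios, while Tbc1d10b lay between them at -0.025. Copa, the alpha subunit of COPI, had 0.103 in CAF-1 knockdown and 0.135 in Renilla (log2 ratio -0.39). Sec24b, which selects cargo for COPII carriers, had 0.123 in CAF-1 knockdown and 0.160 in Renilla (log2 ratio -0.38). Stx3, a syntaxin of the apical membrane, had 0.110 in CAF-1 knockdown and 0.141 in Renilla (log2 ratio -0.36), and a second Stx3 start 510 bp away had a ratio of -0.26. These genes had CAF-1 knockdown values of 0.103 to 0.134 and Renilla values of 0.135 to 0.179. The other promoters past 0.32 lower were those of Tbc1d22b, Arl5b, Tbc1d25 and Arl15.

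**Figure D4:**
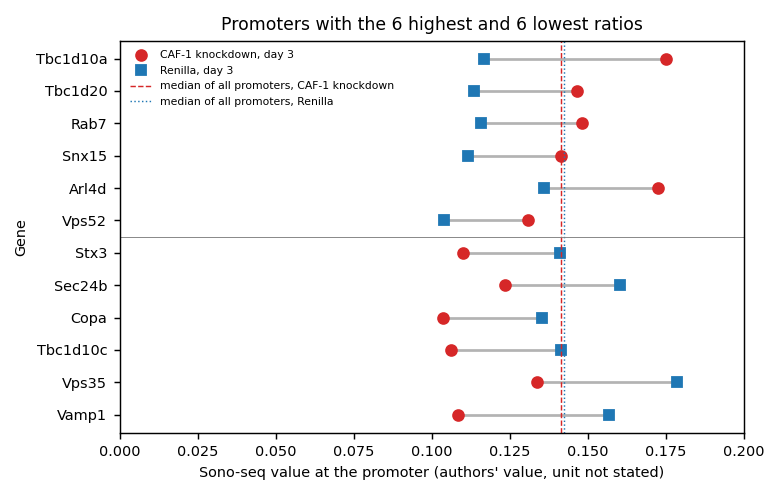
Sono-seq value at the promoter (x axis, the authors' value without a stated unit) for the genes with the 6 highest and the 6 lowest log2 ratios; red circles are CAF-1 knockdown, blue squares Renilla, and the vertical lines the medians of all promoters in each condition. The 6 upper genes have the circle to the right of the square and the 6 lower genes the reverse.

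By role, Rab GTPase promoters had a median log2 ratio of -0.058 (19 promoters), with Rab7 the only one past 0.32 in size. The early endosome GTPases Rab5a, Rab5b and Rab5c had ratios of -0.058, -0.21 and 0.066. The 13 Tbc1d promoters had a median of -0.080. Their SD of 0.30 was the largest of the families, close to the 0.29 of the SNAREs. Past 0.32 in size, 2 were higher (15.4%; 6.68% of all promoters) and 3 lower (23.1%; 8.98%). Arf and Arl promoters had a median of -0.020 (15) and Sec and COPI promoters of -0.012 (15). Among the Sec genes, the Sec61 translocon subunits Sec61a1, Sec61b and Sec61g had ratios of 0.093, 0.17 and 0.31, whereas Sec61a2 had -0.12. The 12 Vps promoters had a median of 0.056, with 8 above 0 (66.7%; 48.2% of all promoters). Adaptor promoters had -0.098, with 1 of 6 above 0 (16.7%). Medians were -0.0094 for sorting nexins (13), -0.035 for Rab effectors (4) and -0.16 for SNAREs (7). No family of 4 to 19 promoters can be told from the others on 1 value per condition.

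Subunits of the same complex, grouped here with their values known, often had unlike promoter ratios. Of COPI, Copa had -0.39, Copz1 -0.29 and Copb2 0.14. Of the COPII coat, the cargo-binding Sec24b had -0.38 and Sec24a -0.012, and the cage proteins Sec13 and Sec31a had -0.031 and 0.046. Copz1 and Copa thus lay below 0 with Sec24b, while the other coat subunits lay near or above it. Of the retromer, Vps35 had -0.42 and its partner Vps26a 0.027. Of GARP, Vps52 had 0.33 and Vps54 -0.0046. Of the ESCRT complexes, Vps37b had 0.27, Vps37c 0.063 and Vps25 -0.23. The tether subunits Vps16, Vps33a and Vps8 stood closer together at 0.068, 0.10 and 0.050, and the AP-3 subunits Ap3s1, Ap3s2 and Ap3m1 at -0.057, -0.21 and -0.14.

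The level of the promoters, the mean of both conditions, ranged from 0.0762 to 0.195 with a median of 0.140, against 0.143 for other genes. The highest levels were at Vps16 (0.195) and Vps33a (0.193), which form the core of the HOPS and CORVET tethers, followed by Sec61b (0.188), Tbc1d24 (0.186) and Arl2 (0.181), a GTPase that also serves tubulin folding. The lowest were at Rab9 (0.0762), which recycles receptors from late endosomes, Snx12 (0.0896), Vps54 (0.0935), Arl5b (0.102) and Snx7 (0.104). Rab9 and Snx12 lie on the X chromosome, as does Tbc1d25 (0.105), and promoters of X-linked genes had a median level of 0.0823 (139 promoters) against 0.143 on autosomes (5374 promoters).

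Start sites of the same gene can be compared, although close starts may share DNA in their windows. In 6 genes with starts 321 to 611 bp apart, the log2 ratios of the pair differed by 0.0018 (Stx5a) to 0.098 (Stx3). In Snx10, whose starts lie 20620 bp apart, the ratios were 0.099 and -0.24, so that the ratios had opposite signs. Neighbouring trafficking genes also differed: Snx15 had 0.34 and Arl2, 12922 bp away with 1 enhancer in common, had -0.033. Tbc1d15, which acts on Rab7, had -0.31, and Rab21, 64098 bp away, had 0.035.

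Each trafficking gene had a median of 3 enhancers (1 to 17), as did other genes, and 26 genes had 1 only. The table assigned 197 of the 360 enhancers (54.7%) to another kind of gene as well, and the median distance to the start was 32202 bp. The median log2 ratio over these enhancers was 0.030 (quartiles -0.11 and 0.21), against 0.028 (quartiles -0.12 and 0.18) for the 13905 enhancers of all other genes. Ratios were above 0 at 199 enhancers (55.3%; 55.3% of all enhancers). Past a log2 ratio of 0.32 in size, 44 were higher in CAF-1 knockdown (12.2%; 10.3% of all enhancers) and 22 were lower (6.11%; 6.58% of all enhancers). Enhancers thus stood slightly above promoters in both the trafficking genes and the table: the enhancer median exceeded the promoter median by 0.049 in trafficking genes and by 0.037 over all regions. The 163 enhancers assigned to no other gene had a median of 0.038, and the 197 others 0.026. By family, medians ran from -0.073 for adaptors (7 of 21 above 0) and -0.055 for Rab effectors (8 enhancers) to 0.10 for Vps genes (41 enhancers).

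Among the 49 genes with 3 or more enhancers, 5 stood highest by mean ratio. Vps37b, a subunit of ESCRT-I, had 8 of 8 enhancers above 0, with a mean log2 ratio of 0.28 ± 0.14 (SD over enhancers). Its values ran from 0.110 in CAF-1 knockdown and 0.0793 in Renilla at the weakest enhancer to 0.210 in CAF-1 knockdown and 0.166 in Renilla at the strongest. Snx8, a nexin of early endosomes, had 4 of 4 above 0 (0.29 ± 0.25), Tbc1d10a 3 of 3 (0.23 ± 0.21), Snx11 3 of 4 (0.26 ± 0.21) and Vps54, another GARP subunit, 2 of 3 (0.22 ± 0.35). The table also assigned 6 of the 8 Vps37b enhancers, 3 of 3 of Tbc1d10a and 3 of 4 of Snx11 to another kind of gene. For Snx8 and Vps54 the number was 0. Tbc1d10a and Vps37b were also high at the promoter (0.58 and 0.27), as was Snx8 (0.22), whereas Snx11 had -0.092 and Vps54 -0.0046 there. The Vps54 mean rested on 1 enhancer with 0.117 in CAF-1 knockdown and 0.0764 in Renilla, whose log2 ratio of 0.62 was the highest of the 360.

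At the low end, Ap4b1 had 0 of 4 enhancers above 0 (-0.26 ± 0.11), Tbc1d10c 0 of 3 (-0.23 ± 0.12) and Arl6ip1, which shapes the endoplasmic reticulum, 0 of 4 (-0.25 ± 0.26). Arl4c had 3 of 9 (-0.11 ± 0.25) and Rab1, which governs traffic from the endoplasmic reticulum to the Golgi, 5 of 12 (-0.11 ± 0.30). All enhancers of Ap4b1, Tbc1d10c, Arl6ip1 and Rab1 are also assigned to another kind of gene, and 0 of those of Arl4c. Tbc1d10c was low at the promoter as well, while Arl6ip1 had a promoter ratio of 0.24, opposite to its enhancers. The genes with the most enhancers spread on both sides of 0: Snx30 with 17 (9 above 0, 0.035 ± 0.26), Rab8a, a GTPase of exocytosis and cilia, with 17 (13 above 0, 0.076 ± 0.26), Stx2 with 11 (0.012 ± 0.32) and Sec14l1 with 11 (0.024 ± 0.19). Most enhancers of Rab8a are also assigned to Klf2. Outside these genes, the most extreme single enhancers were those of Arf6, at 0.116 in CAF-1 knockdown and 0.180 in Renilla (log2 ratio -0.63), and of Arl4a, at 0.191 in CAF-1 knockdown and 0.125 in Renilla (0.61). Across the 97 genes the promoter ratio and the mean enhancer ratio were almost unrelated (Pearson's r 0.018, Spearman's rho 0.073), and they had the same sign in 56 (57.7%), against 49.7% of other genes (r 0.026). These correlations are across genes measured in the same libraries, and describe them only.

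**Figure D5:**
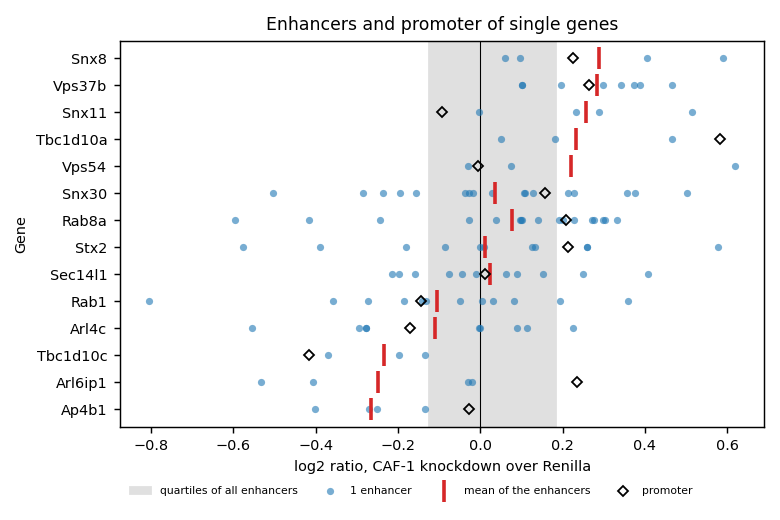
Log2 ratio of CAF-1 knockdown over Renilla (x axis) at each enhancer (points), their mean (red line) and the promoter (diamond) for trafficking genes with the highest or lowest mean enhancer ratio or the most enhancers; the grey band spans the quartiles of all enhancers. All 8 Vps37b points lie above 0 and all 4 Ap4b1 points below, while Rab1 spans -0.80 to 0.36.

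Sox2 lay within 500 bp of 22 of the 360 enhancers in at least 1 list (6.11%; 4.78% of all enhancers). By list there were 12 in Chaf1a.166 (3.33%; 3.33% of all enhancers), 16 in Chaf1a.2122 (4.44%; 3.65%) and 15 in Renilla (4.17%; 3.2%), and 8 were in all 3 (2.22%; 2.22%). These 8 belonged to Arl2bp (2 enhancers), Arf6, Arl4c, Copz1, Sec22b, Snx16 and Snx30. Their log2 ratios lay on both sides of 0, with -0.31 and 0.15 at Arl2bp, 0.12 at Arf6 and -0.28 at Arl4c. The enhancer with the lowest ratio of all 360 had Sox2 in only some lists: the Rab1 enhancer at position 20108700 of chromosome 11 (mm9), 7096 bp from the start, had 0.0850 in CAF-1 knockdown and 0.148 in Renilla. Its log2 ratio of -0.80 was the eighth lowest of 14265 enhancers, and Sox2 lay 363 bp away in Chaf1a.2122 and 382 bp away in Renilla, but 15889 bp away in Chaf1a.166. The enhancer is also assigned to Actr2. The Sec61g enhancer at position 16398800 of chromosome 11 had 0.0798 in CAF-1 knockdown and 0.116 in Renilla (log2 ratio -0.54), with Sox2 29 bp away in Chaf1a.166 and 52 bp away in Renilla. Both enhancers thus had a Sox2 position in the Renilla list and in the list of 1 Chaf1a hairpin. They were named after their ratios and Sox2 distances were seen. Some other low enhancers had no Sox2 within 500 bp in any list, unlike those of Arl2bp (-0.31) and Arl4c (-0.28) above. Examples were those of Arf6 (log2 ratio -0.63, nearest position 9790 bp away) and Rab8a (-0.60, 29661 bp away). A relation between Sox2 at enhancers and the ratio was not tested.

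The 19 promoters of trafficking genes with Sox2 within 10 kb in all 3 lists had a median log2 ratio of -0.080, with 5 above 0 (26.3%). The 51 without Sox2 in any list had 0.017, with 27 above 0 (52.9%). Other genes had -0.012 with Sox2 in all 3 lists (1129 promoters, 47.4% above 0) and -0.0007 without Sox2 (3193 promoters, 49.9% above 0). The 19 include the promoters of Vamp1, Rab30, Snx10 and Vps25 described above, so they are no separate result. The difference was not tested. A list of 70 other trafficking genes in the table, such as clathrin, exocyst, TRAPP and COG subunits, had a promoter median of 0.021. Of their 74 promoters, 40 were above 0 (54.1%; 48.2% of all promoters). Past 0.32 in size, 4 were higher (5.41%; 6.68% of all promoters) and 9 lower (12.2%; 8.98%). Their 230 enhancers had a median of 0.071, with 28 past 0.32 higher (12.2%; 10.3% of all enhancers) and 18 lower (7.83%; 6.58%). Sox2 lay within 10 kb of 19 of these genes in Chaf1a.166 (27.1%; 28.5% of all genes), 24 in Chaf1a.2122 (34.3%; 33.4%) and 21 in Renilla (30.0%; 29.3%), and of 17 in all 3 lists (24.3%; 20.8%). In any list it lay near 26 of them (37.1%; 41.3% of all genes), below the background, whereas the 97 genes at 51.5% lay above it. Within 2 kb the share in any list was 21.4% for the 70 genes, 22.7% for the 97 genes and 23.0% for all genes. The shares of the 70 genes by list were thus near those of all genes. Their enhancer median of 0.071 was above the 0.030 of the 97 genes and the 0.028 of other genes.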

How the data were processed

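Sono-seq and Sox2 ChIP-seq libraries of day 3 were used (12 of 61 samples), grouped by their labels. Assembly mm9 and the aligners BWA (0.7.8) and Bowtie appear in the submitters' processing notes, which assign no role to either tool. The position caller, the read depth and the peak thresholds are not given in the sources used here. The deposited Sono-seq values were treated as a score, because their unit, scaling and the way 3 libraries became 1 value are not given. Its header says that the regions are published ES cell enhancers and promoters. For every Sox2 position the deposited lists give the authors' score, their E-value, their q-value (false discovery rate, at most 0.000644) and their enrichment ratio over input with a lower bound. All of these were used within a list only.

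The log2 ratio of CAF-1 knockdown over Renilla was computed per distinct region without a pseudocount, since no value was 0. With 1 value per condition no test was run, and counts are given beside those of all genes or regions. Each Sox2 list is measured against its own input and the same Renilla list serves both knockdowns. The level-adjusted ratio subtracts the median of other genes' regions in the same decile of mean level. Distances run from start sites in the table, and strand and sequences come from RefSeq (GRCm38.p6). In 136 rows a spreadsheet had replaced the symbol with a date, and the symbol was recovered from the transcript. Calculations used Python 3.11.15, pandas 2.3.3, numpy 2.4.6 and scipy 1.17.1, and were tested on simulated data.

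The members, families and lists were chosen with earlier results of these data known. Named genes are those with the 6 highest and 6 lowest promoter ratios, the 5 highest and 5 lowest promoter levels and mean enhancer ratios (3 or more enhancers), the most enhancers, Sox2 within 1 kb in any list or in both knockdown lists or Renilla only, and the 5 best-ranked positions per list. Others were named after their values were seen.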

Additional observations from a re-analysis of the deposited data

How the results depend on the processing

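No paired analysis was possible because the files give 1 value per condition and 1 Sox2 list per hairpin, and for the same reason no replicate could be left out. Medians over trafficking promoters and enhancers moved by less than their order-statistic interval under other pseudocounts, scalings and sets of regions. The promoter median was 0.012 above the median level, a change of sign, and the enhancer median was -0.000055 with both conditions scaled to the same median, where 35 enhancers were past a log2 ratio of 0.32 higher and 26 lower. At a fold of 1.5, the promoters past it were 0 higher and 0 lower, and the enhancers 5 higher and 3 lower. Above the median level, 2 promoters were past 0.32 higher and 1 lower, and 27 enhancers higher and 7 lower. The number of trafficking genes near Sox2 grew with distance. In Chaf1a.166 it was 12 within 1 kb, 14 within 2 kb (14.4%; 13.8% of all genes) and 68 within 50 kb (70.1%; 65.8%). In Chaf1a.2122 it was 13, 16 (16.5%; 16.9%) and 75 (77.3%; 70.5%), and in Renilla 8, 11 (11.3%; 14.2%) and 67 (69.1%; 66.5%). In all 3 lists it was 4, 6 (6.19%; 8.5%) and 57 (58.8%; 55.9%). Where the lower bound of enrichment had to reach 2, the counts within 10 kb were 15 in Chaf1a.166, 24 in Chaf1a.2122, 23 in Renilla and 8 in all 3. That bound also shortened the whole lists, to 10629 of 15888 positions in Chaf1a.166, 11071 of 19319 in Chaf1a.2122 and 11545 of 17681 in Renilla. Under that bound none of Vps52, Vps45 and Snx7 was near Sox2 in any list, Rab5c was in Chaf1a.2122 alone, and Arl1 and Snx30 left the Renilla list. Within 10 kb, Vamp1 was then in Chaf1a.166 and Renilla, Snx10 in both knockdown lists, Vps25 in Chaf1a.2122 and Renilla, and Rab30 in all 3 lists, through a second position in Renilla. With the best 15888 positions of each list the counts were 31, 35, 31 and 17. Shares over all genes or regions were not computed for the bound, the equal list length, the other scaling, the fold of 1.5 or the median level. Counts under these settings thus have no background beside them. The cause of the shifts between settings was not tested beyond the construction of each setting. A depth that is unknown limits every statement about a position missing from a list.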
